A study of Mus musculus with 8 samples.

Results

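The OFT arrays of a microarray series on mouse embryos were compared with the LM and UM arrays of the same series. The comparison used 6 of the 8 arrays: an OFT control, an OFT mutant, an LM control, an LM mutant, a UM control and a UM mutant, chosen by the origin and genotype in their labels. The other 2 arrays, made from p75-sorted cranial neural crest cells, stayed out of the comparison. The mutants are FAK mutants. Focal adhesion kinase (FAK) passes signals on from the sites where integrins hold cells to the matrix. The embryos are described as E11.5 in the series title, and all 6 samples carry the source label head/neck. LM, OFT and UM are used as the labels write them, since nothing there says what they stand for. How FAK was altered, in which cells, and how many embryos went into each of the 6 arrays is not stated in the labels. Ptk2, the gene of FAK, is not analysed here. Each origin has 1 control and 1 mutant array, which served as its 2 replicates after a term for genotype was taken out. The p-values therefore rest on the spread between these 6 arrays, which may be partly technical.

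Cranial neural crest cells are migratory cells that leave the neural tube and form much of the facial skeleton and its connective tissue. A more caudal stream enters the pharyngeal arches and the vessels at the exit of the heart, where crest cells become smooth muscle and help to divide the vessel. Mesoderm of the second heart field, pharyngeal endoderm, endothelium and epicardium lie close by. Hox genes, which record position along the body axis, are off in most crest of the face and on further back.

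The values are probe set intensities, analysed as log2(intensity + 32), and each gene was read from its brightest probe set. Intensities below are given for the control and then the mutant array of each origin. A difference is the OFT mean minus the mean of LM and UM on this log2 scale, with limma's moderated SE after the ± sign. A gene was called when its Benjamini-Hochberg adjusted p over all 13011 tested genes was under 0.05. On this scale an intensity of 0 is 5, so the differences of genes that are dim in LM and UM are understated. Genes named below were called unless a sentence says that they did not pass, and members named beyond the largest of a list were chosen after their values were seen. Of the genes chosen by the naming rule, those whose call was lost when an array was left out or under another setting are named beside their values. The other settings are the pseudocounts 1 and 100, the filter, the scaling, the variance model and the use of all 8 arrays. The 6 arrays had median log2 values of 5.991 to 6.083. The OFT pair correlated at 0.9859 with each other and at 0.9313 to 0.9507 with LM and UM arrays, which correlated with each other at 0.9693 to 0.9856. Spike-in controls had a geometric mean intensity of 2225 on the LM control array and 804 to 1109 on the other 5. Y-linked transcripts were low on the OFT control array alone. Eif2s3y, a Y-linked translation factor gene, read 6.20 there and 79.4 to 155 on the other 5 arrays. Xist read 4368 to 5032 on all 6. The part of embryo sex in the OFT values was not tested. In RNA from whole tissue, fewer cells of a type and less RNA per cell cannot be told apart.

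OFT differed widely from LM and UM, and mostly upward. limma called 1949 of the 13011 genes, 1461 higher in OFT (11.2%) and 488 lower (3.75%). These shares are the background against which the counts of each gene list below are read. A gene that passed the filter on low values through the OFT arrays alone could differ only upward. The shares called higher, of the lists and of all genes, are thus partly set by that filter. At least 2-fold differences were found for 506 of the higher and 96 of the lower genes, and at least 4-fold differences for 104 and 12. Of those 104, 31 belonged to a list of heart muscle genes, which does not hold every gene active in heart muscle. Sh3bgr and Fabp3, described below, are examples outside it. Both OFT arrays lay above all 4 LM and UM arrays for 3045 genes (23.4%) and below all 4 for 2280 (17.5%). The count of called genes was 547 with the OFT control left out and 781 with the OFT mutant left out. Leaving out the UM control gave 2935 and leaving out the UM mutant 3136.

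The arrays labelled OFT carried the transcripts of heart and vessel wall used to check the label. Tbx20, a T-box transcription factor of the embryonic heart, read 1023 and 1586 in OFT, 1.72 and 4.04 in LM, and 8.01 and 12.2 in UM. Gata6, a zinc finger transcription factor of the heart and gut, read 651 and 767 in OFT, 9.75 and 21.1 in LM, and 12.05 and 11.7 in UM. Tagln, an actin-binding protein of smooth muscle, read 1332 and 1355 in OFT, 28.6 and 42.6 in LM, and 27.5 and 20.8 in UM. Both OFT arrays stood far above the others for all 3 genes, with no overlap. Their differences were 5.09 ± 0.17, 4.02 ± 0.15 and 4.49 ± 0.16. Myl7 and Tnnt2, the atrial myosin light chain and cardiac troponin T, differed by 6.94 ± 0.15 and 5.55 ± 0.15. Of the heart muscle list 56 of 59 tested genes were called higher, and the rest of the account concerns other genes.

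**Figure D1:**
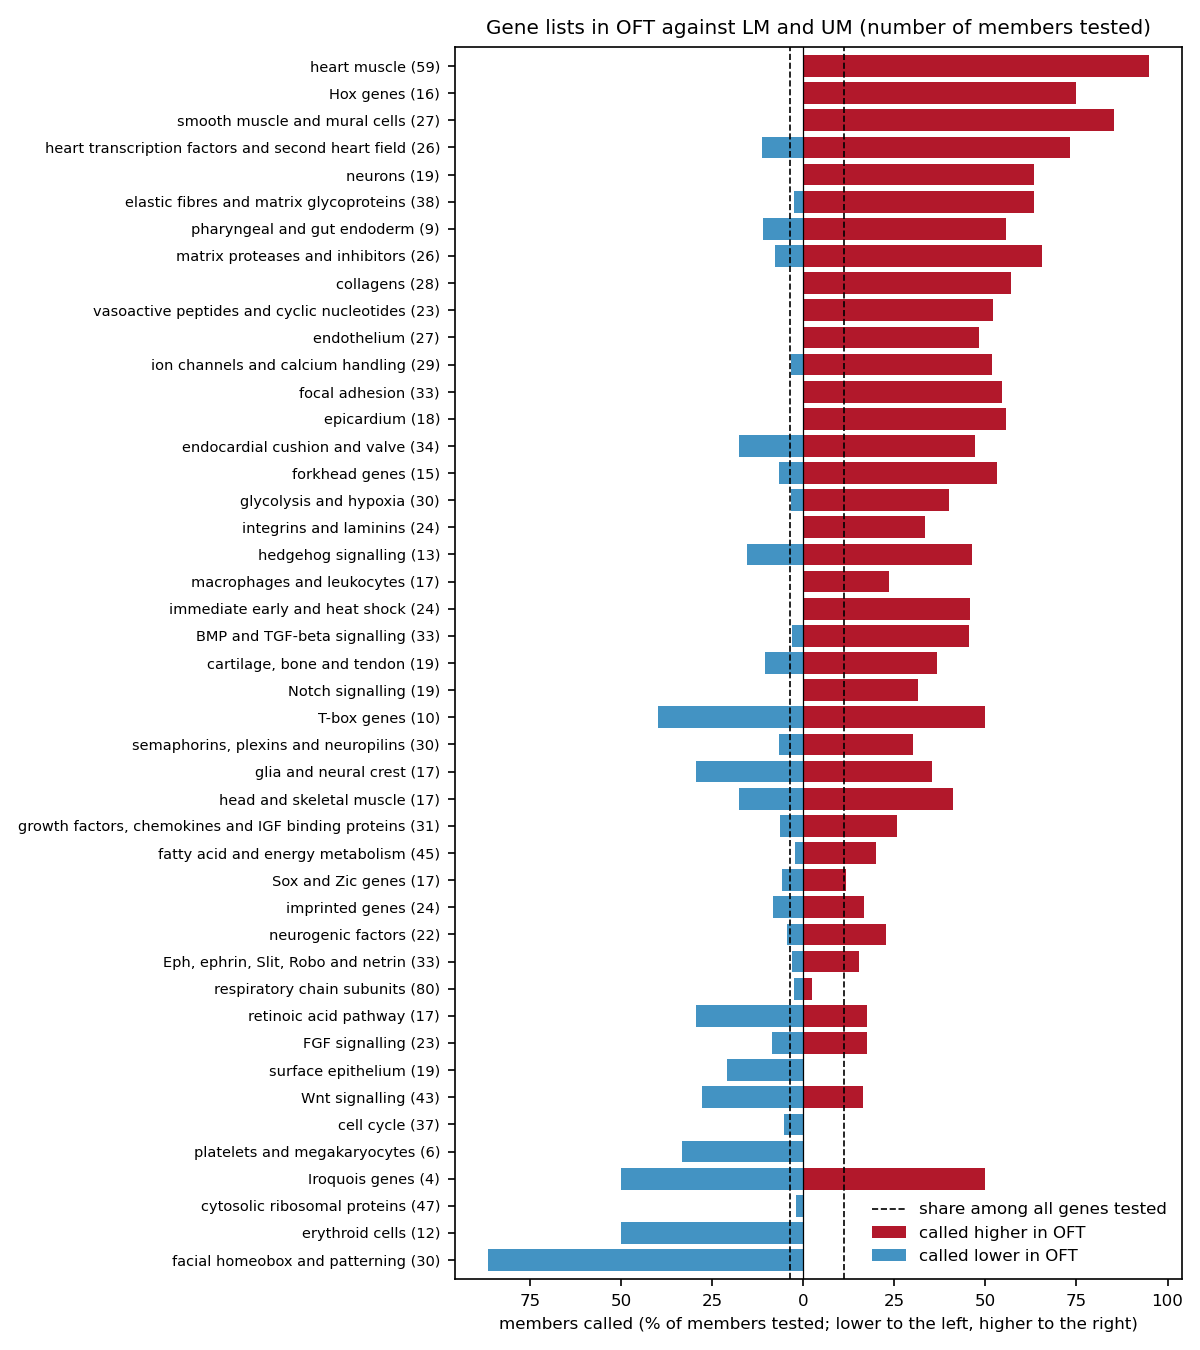
Share of tested members called higher (red, to the right) or lower (blue, to the left) in OFT for each gene list, in percent, with the number of members tested in brackets and lists ordered by median difference. Dashed lines mark the shares over all 13011 genes, 11.2% higher and 3.75% lower. Facial homeobox genes stand at the bottom with 86.7% lower, and Hox and smooth muscle genes follow heart muscle at the top with 12 of 16 and 23 of 27 members higher.

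No gene was called for a different OFT effect in the 2 genotypes. The product of OFT and genotype compares the OFT difference among the 3 mutant arrays with that among the 3 control arrays. limma called 0 of 13011 genes (0%), with a smallest adjusted p of 1.0. Before adjustment 166 genes had a p under 0.05, fewer than the 651 expected by chance. All 1949 genes called between OFT and the other origins had the same sign in controls and in mutants, which the fit favours, since a gene that goes opposite ways in the 2 genotypes has a large error. With 1 array per origin and genotype this test has 1 residual degree of freedom, and a missed threshold does not show that the genotypes were alike. Eif2s3y and Uty, both Y-linked, had the smallest unadjusted p-values, and their OFT differences were -1.92 and -1.61 in controls and 0.21 and 0.67 in mutants. The next was Rrp9, a gene of ribosomal RNA processing, at 0.84 and -0.63. Cartpt, a neuropeptide gene, had differences of 1.21 and -0.27. Kif5a, a kinesin gene of neurons, had differences of 1.52 in controls and 0.07 in mutants.

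**Figure D2:**
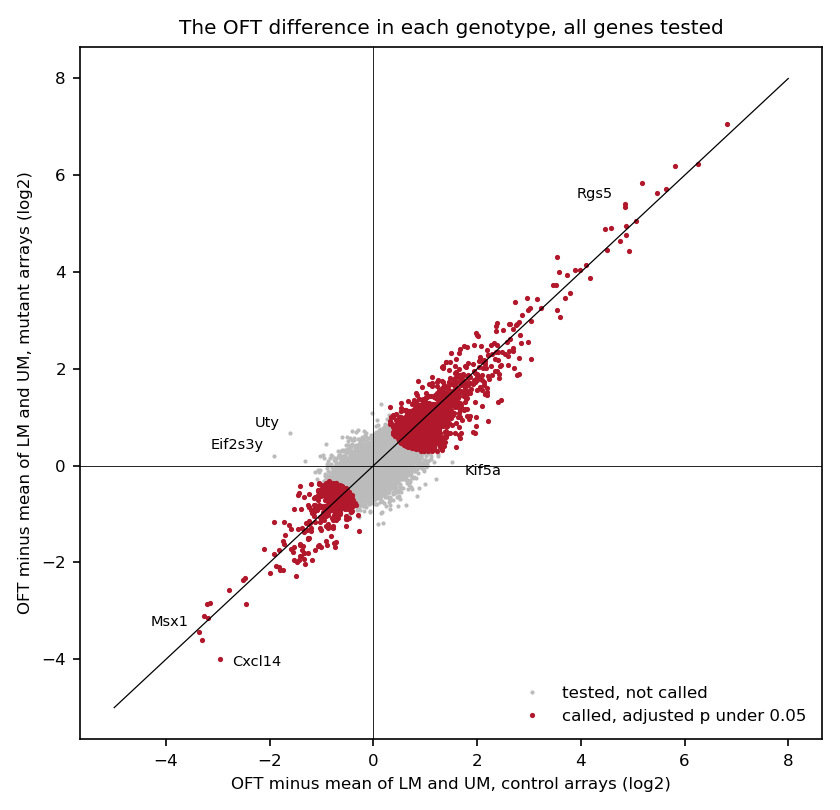
Difference between OFT and the mean of LM and UM (log2) in the control arrays (horizontal) and in the mutant arrays (vertical), 1 point per tested gene, with the line of equal differences. Red points are the 1949 called genes, which all lie in the upper right or lower left part of the plot, and Eif2s3y and Uty lie off the line on the left.

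Smooth muscle and mural cell genes were higher in OFT. Of 27 tested members 23 were called higher and 0 lower, against 11.2% and 3.75% of all genes, and the median difference was 1.61 against 0.01 over all genes. The higher count was 15 with the OFT control left out and 20 with the OFT mutant left out. Rgs5, a regulator of G protein signalling that marks pericytes, read 2454 and 3873 in OFT, 66.8 and 78.96 in LM, and 42.2 and 44.01 in UM, a difference of 5.14 ± 0.17 (adjusted p = 1.54e-07). Both OFT arrays were above every other array, and the mutant read higher than the control. Acta2, the smooth muscle alpha actin, read 4032 and 4512 in OFT, 742 and 901 in LM, and 80.6 and 127 in UM. LM was intermediate for Acta2, above UM and below OFT, and the OFT difference was 3.67 ± 0.15. Cnn1, calponin, an actin-binding protein of contractile smooth muscle, read 184 and 232 in OFT, 4.49 and 1.18 in LM, and 1.03 and 4.22 in UM. It was near the lower end of the scale on all 4 LM and UM arrays, and the difference was 2.78 ± 0.16. Myl9, a regulatory light chain of smooth muscle myosin, read 2078 and 2419 in OFT, 267 and 356 in LM, and 353 and 380.1 in UM. Myl9 was present in all 3 origins and differed by 2.63 ± 0.15. Actg2, the enteric smooth muscle actin, differed by 2.36 ± 0.19, and the groups did not overlap. Myocd, the SRF coactivator that drives smooth and cardiac muscle genes, read 206 and 158 in OFT, 7.63 and 9.29 in LM, and 16.2 and 17.95 in UM, and differed by 2.25 ± 0.16. Myh11, the smooth muscle myosin heavy chain, read 67.8 and 23.5 in OFT, 1.19 and 2.56 in LM, and 0.986 and 19.9 in UM, a smaller difference of 0.99 ± 0.26 that was still called. Cnn1, Myocd and Myh11 could be tested only because the OFT arrays passed the filter on low values. The share of smooth muscle genes called higher is thus partly set by that filter. Desmin (Des, 1.82), the pericyte proteoglycan gene Cspg4 (1.93) and the melanoma cell adhesion molecule gene Mcam (1.90) were also higher. Srf itself differed by 0.42 ± 0.15 and did not pass. Cald1, caldesmon, differed by 0.10 ± 0.21, overlapped between the groups and did not pass. Itga8, an integrin gene of mesenchyme, had a difference of -0.54 ± 0.19 that did not pass. Heart muscle genes were higher on the same OFT arrays, for 56 of 59 tested. The part of heart muscle in these smooth muscle values was not tested.

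**Figure D3:**
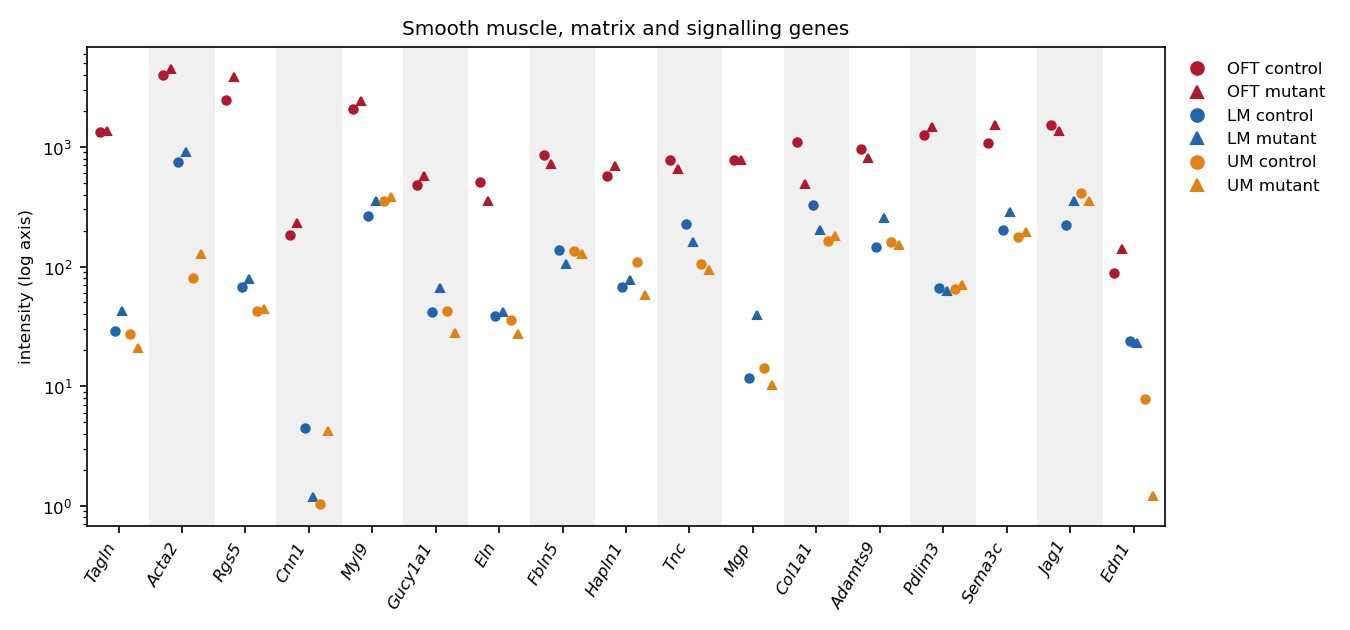
Intensity on each of the 6 arrays (log axis) for 17 smooth muscle, matrix and signalling genes, with OFT in red, LM in blue and UM in orange, controls as circles and mutants as triangles. Both red points lie above the blue and orange points for every gene shown, and the LM arrays lie between OFT and UM for Acta2.

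The CArG box, the binding site of SRF, was looked for in promoter windows because many of these genes are known SRF targets. RefSeq promoter sequences of build GRCm38.p6 were searched, 250 bases before to 50 after each annotated start, for the box in its strict form, which reads the same pattern on both strands. Of 27025 genes with a window 488 held a box (1.81%). The share was 1.6% of the 10469 tested genes with a window, 3.32% of the 1115 called higher and 0.802% of the 374 called lower. In the heart muscle list 7 of 52 genes had one (13.5%), and in the smooth muscle list 2 of 23 (8.7%), of which Myl9 was called. Windows of Tagln, Myh11, Actg2 and Myocd were not used here, and those of Acta2 and Cnn1 held no strict box. A match is a description of letters and not of binding. Of the 37 genes called higher with a box, 7 belonged to the heart muscle list and 7 to another list. The 40 bases around the box are shown for the latter 7, which belong to gene groups described here, and for Myl7 as an example from heart muscle, with the box in capitals.
Myl9: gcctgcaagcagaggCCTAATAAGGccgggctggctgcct
Hopx: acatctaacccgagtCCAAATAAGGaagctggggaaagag
Vcl: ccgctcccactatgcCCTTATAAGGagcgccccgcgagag
Igf2: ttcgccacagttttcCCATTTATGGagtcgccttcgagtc
Fermt2: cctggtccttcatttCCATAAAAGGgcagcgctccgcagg
Lama2: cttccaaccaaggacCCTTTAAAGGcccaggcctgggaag
Zfp36: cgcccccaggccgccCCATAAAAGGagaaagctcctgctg
Myl7: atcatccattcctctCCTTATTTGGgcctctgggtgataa
In GRCm38.p6 these stretches are chr2:156775288-156775327 on the plus strand for Myl9, chr5:77115182-77115221 on the minus strand for Hopx, and chr14:20929156-20929195 on the plus strand for Vcl. Igf2 lies at chr7:142661402-142661441, Fermt2 at chr14:45530245-45530284, Lama2 at chr10:27616957-27616996, Zfp36 at chr7:28379262-28379301 and Myl7 at chr11:5898819-5898858, all on the minus strand. Counted from the annotated start, the box begins at position -161 for Myl9, -83 for Hopx, -227 for Vcl, -155 for Igf2, -204 for Fermt2, -39 for Lama2, -58 for Zfp36 and -61 for Myl7. Differences in OFT were 2.63 for Myl9, 1.42 for Hopx, a small homeodomain protein of heart progenitors, and 1.10 for Vcl, vinculin. They were 0.83 for Igf2, the fetal growth factor, 0.71 for Fermt2, the integrin activator kindlin, and 0.65 for Lama2, a laminin chain. Zfp36, an mRNA decay factor, had the smallest of them, 0.54. Igf2 missed the threshold with the OFT control left out (adjusted p = 0.223). Igf2 missed the threshold with the OFT mutant left out (adjusted p = 0.16). Igf2 missed the threshold with LM and UM as 1 group (adjusted p = 0.35), and Igf2 under another pseudocount or other setting (adjusted p = 0.0616 to 0.155).

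Genes of elastic fibres and matrix glycoproteins were largely higher in OFT. Of 38 tested members 24 were called higher and 1 lower, with a median difference of 0.92. These counts were 16 higher and 1 lower with the OFT control left out, and 19 and 0 with the OFT mutant left out. Eln, elastin, the core protein of elastic fibres, read 511 and 356 in OFT, 38.5 and 41.8 in LM, and 35.8 and 27.5 in UM, a difference of 2.76 ± 0.17 (adjusted p = 6.99e-06). Fbln5, a fibulin needed to assemble those fibres, read 863 and 724 in OFT, 138 and 105 in LM, and 134 and 128 in UM, and differed by 2.38 ± 0.15. For both genes LM and UM were alike and well below OFT. Hapln1, a link protein that ties hyaluronan to proteoglycans, read 577 and 696 in OFT, 66.99 and 77.5 in LM, and 109 and 57.4 in UM. Tnc, tenascin C, a glycoprotein of remodelling matrix, read 774 and 655 in OFT, 225 and 160.2 in LM, and 104 and 92.9 in UM. Both were higher in OFT without overlap, by 2.62 ± 0.20 and 2.13 ± 0.15. Sparc, a collagen-binding glycoprotein, and Ltbp1, which holds latent TGF-beta in the matrix, differed by 1.84 ± 0.17 and 1.75 ± 0.16. Fibronectin (Fn1), read at 4454 and 3690 in OFT, 1853 and 1345 in LM, and 1469 and 1679 in UM, differed by 1.35 ± 0.17. Lum, lumican, a small proteoglycan of collagen fibrils, read 510.1 and 403 in OFT, 783 and 851 in LM, and 1171 and 1126 in UM. It was the called member that went the other way, at -1.04 ± 0.16. Dcn, decorin, a related proteoglycan, was higher in OFT by 1.64 ± 0.19. Mgp, matrix Gla protein, an inhibitor of calcification made by vessel wall and cartilage, read 784 and 773 in OFT, 11.7 and 39.2 in LM, and 14.2 and 10.2 in UM, and differed by 4.03 ± 0.19.

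Collagen genes were called higher for 16 of 28 tested members and lower for 0, with a median difference of 0.75. Col1a1, a chain of fibrillar type I collagen, read 1109 and 489 in OFT, 330.0 and 202 in LM, and 164 and 180.2 in UM. OFT was above the other arrays, but the control read more than the mutant in OFT and in LM, and the difference was 1.66 ± 0.23. Col12a1, which coats fibrils, and Col5a1, which starts them, differed by 1.66 ± 0.20 and 1.45 ± 0.22. Chains of cartilage collagens followed, Col9a1 at 1.44 ± 0.15 and Col2a1 at 1.32 ± 0.24. Col9a1 read 2733 and 2926 in OFT, 1565 and 1576 in LM, and 711 and 619 in UM, in the order OFT, LM, UM. Col4a5, a basement membrane chain, differed by 1.38 ± 0.15. The count of higher collagen genes was 7 with the OFT control left out and 11 with the OFT mutant left out. Col2a1 missed the threshold with the OFT control left out (adjusted p = 0.0849). Col9a1 missed the threshold with LM and UM as 1 group (adjusted p = 0.0585), and Col1a1, Col5a1 and Col2a1 under another pseudocount or other setting (adjusted p = 0.0528 to 0.0937).

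Matrix proteases and their inhibitors were higher for 17 of 26 tested genes and lower for 2. The counts were 7 higher and 1 lower with the OFT control left out, and 10 and 1 with the OFT mutant left out. Adamts9, a secreted protease that cleaves versican, read 961 and 814 in OFT, 146 and 255 in LM, and 162 and 151 in UM, and differed by 2.15 ± 0.20. Adamts1, which has the same substrate, differed by 1.51 ± 0.16, and Adamts18, a further family member, by 1.85 ± 0.18. Htra1, a secreted serine protease, differed by 1.80 ± 0.15. Adam19 and Adam12, membrane-bound metalloproteases, differed by 1.69 ± 0.16 and 1.60 ± 0.16. For each of these 6 genes both OFT arrays were above the other 4. Adamts20 and Adamts19 were the members that were lower, at -1.33 and -0.75. Adamts20, a protease gene needed for the spread of pigment cells, read 233 and 254 in OFT, 386 and 569.9 in LM, and 1093 and 780.3 in UM.

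Integrin and laminin genes had modest differences. Of 24 tested members 8 were called higher (33.3%) and 0 lower, against 11.2% and 3.75% of all genes, and the median difference was 0.43. The count was 4 with the OFT control left out and 4 with the OFT mutant left out. Itga1, the alpha chain of a collagen receptor, read 109 and 127 in OFT, 22.1 and 18.5 in LM, and 16.1 and 13.7 in UM, and differed by 1.59 ± 0.15. Itga4, the alpha chain of a receptor for fibronectin and VCAM1, read 474 and 414 in OFT, 143 and 118 in LM, and 121 and 142 in UM, and differed by 1.55 ± 0.16. Both were higher in OFT without overlap. Lamc1 and Lama4, laminin chains of basement membranes, differed by 1.39 ± 0.15 and 1.33 ± 0.15. Itgb1, the beta chain shared by most matrix receptors, differed by only 0.68 ± 0.15, and Itgb3 by 0.71 ± 0.17. Itgb3 and Itgb1 missed the threshold with the OFT control left out (adjusted p = 0.215 to 0.251). Itgb3 and Itgb1 missed the threshold with the OFT mutant left out (adjusted p = 0.216 to 0.236). Itgb3 and Itgb1 missed the threshold under another choice of probe sets (adjusted p = 0.0866 to 0.137), and Itgb3 and Itgb1 under another pseudocount or other setting (adjusted p = 0.0538 to 0.111).

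Focal adhesion genes, whose products sit with FAK at integrin sites, were called higher for 18 of 33 tested members and lower for 0. The median difference was 0.64, and the count was 7 with the OFT control left out and 13 with the OFT mutant left out. Pdlim3, an actinin-binding PDZ and LIM protein of muscle, read 1254 and 1465 in OFT, 65.5 and 62.1 in LM, and 64.4 and 70.6 in UM, a difference of 3.83 ± 0.15. LM and UM were alike for Pdlim3. Tgfb1i1, also called Hic-5, a paxillin relative of smooth muscle, read 319 and 286 in OFT, 55.1 and 42.4 in LM, and 65.2 and 85.3 in UM, and differed by 1.85 ± 0.16. Paxillin itself (Pxn) differed by 0.18 ± 0.15 and did not pass. Flnc, a filamin of muscle, Pdlim5, Zyx (zyxin) and Vcl differed by 1.35 ± 0.15, 1.30 ± 0.15, 1.22 ± 0.16 and 1.10 ± 0.15. Ilk, integrin-linked kinase, and Tln1, talin, were called higher at 0.96 and 0.98. Src and Bcar1, which act downstream of FAK, differed by 0.30 ± 0.19 and 0.20 ± 0.15 and did not pass.

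Vasoactive peptide and cyclic nucleotide genes were higher in OFT for 12 of 23 tested members and lower for 0. The count was 5 with the OFT control left out and 7 with the OFT mutant left out. Edn1, endothelin, a ligand that patterns arch crest and constricts vessels, read 87.9 and 141 in OFT, 23.9 and 23.04 in LM, and 7.79 and 1.19 in UM. OFT exceeded LM and LM exceeded UM, and the OFT difference was 1.68 ± 0.19. Ednrb, an endothelin receptor, read 668 and 383 in OFT, 135 and 95.3 in LM, and 155 and 122 in UM, and differed by 1.78 ± 0.16. The endothelin-converting enzyme gene Ece1 differed by 1.15 ± 0.16. Calcrl and Ramp2, which together form the adrenomedullin receptor, differed by 1.19 ± 0.17 and 0.93 ± 0.17. Prkg1, the kinase activated by cyclic GMP that relaxes smooth muscle, differed by 1.17 ± 0.17. Edn1, Ece1 and Ednrb of the endothelin pathway were thus each measured higher in OFT. The receptor gene Ednra has no probe set of its own here, and the ligand gene Edn2 was too dim to be tested. Ramp2 missed the threshold with the OFT control left out (adjusted p = 0.168). Edn1 and Ramp2 missed the threshold under another pseudocount or other setting (adjusted p = 0.0513 to 0.0748).

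Notch genes were called higher for 6 of 19 tested members and lower for 0, and the count was 2 with the OFT control left out and 4 with the OFT mutant left out. The main count is a share of 31.6% higher, against 11.2% of all genes. Jag1, a Notch ligand of vessel wall and crest, read 1516 and 1359 in OFT, 224 and 353 in LM, and 412 and 352 in UM, and differed by 2.03 ± 0.19. Its OFT values were above all others. Notch3, the receptor of smooth muscle, and Notch4, that of endothelium, differed by 0.92 ± 0.17 and 0.75 ± 0.16. The target genes Heyl, Hey1 and Hey2, transcriptional repressors, differed by 1.16 ± 0.15, 1.01 ± 0.18 and 0.80 ± 0.15. Hey1 read 625 and 483 in OFT, 192 and 151 in LM, and 330.4 and 429 in UM, with LM the lowest origin. Hey1, Notch3, Hey2 and Notch4 missed the threshold with the OFT control left out (adjusted p = 0.0836 to 0.277). Hey2 and Notch4 missed the threshold with the OFT mutant left out (adjusted p = 0.117 to 0.189). Hey1 and Hey2 missed the threshold with LM and UM as 1 group (adjusted p = 0.0576 to 0.116), Notch4 under another choice of probe sets (adjusted p = 0.21), and Hey1, Notch3 and Notch4 under another pseudocount or other setting (adjusted p = 0.053 to 0.0741).

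In BMP and TGF-beta signalling 15 of 33 tested genes were called higher and 1 lower, with counts of 5 higher and 0 lower with the OFT control left out, and 7 and 1 with the OFT mutant left out. Among ligands, Tgfb2 read 1494 and 1251 in OFT, 529 and 595 in LM, and 431 and 381 in UM, and differed by 1.46 ± 0.16. Inhba, the activin chain, read 239.5 and 238 in OFT, 31.3 and 48.8 in LM, and 65.8 and 91.7 in UM, and differed by 1.61 ± 0.16. Both were higher in OFT without overlap. Bmp2 was called higher at 0.97, while Bmp4, at 0.47 ± 0.17, did not pass. Smad6, an inhibitor induced by BMP, read 587 and 567 in OFT, 173 and 152 in LM, and 169.7 and 147 in UM, and differed by 1.66 ± 0.15. Fstl3 and Bambi, also antagonists, differed by 1.17 ± 0.15 and 0.999 ± 0.16. Fst, follistatin, which binds activin, read 73.001 and 86.3 in OFT, 161 and 179 in LM, and 224 and 203 in UM. It was the called gene that was lower, at -0.998 ± 0.15. Id1, Id2 and Id3, common BMP targets, had differences of 0.04, -0.14 and 0.19, none of which passed. Fst missed the threshold with the OFT control left out (adjusted p = 0.0895). Bambi missed the threshold with the OFT mutant left out (adjusted p = 0.105).

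Semaphorins and their receptors were higher for 9 of 30 tested genes and lower for 2. Sema3c, a secreted guidance cue known for its role in dividing the vessel at the heart's exit, read 1070 and 1529 in OFT, 200.4 and 287 in LM, and 178 and 193 in UM. It differed by 2.43 ± 0.16 (adjusted p = 1.20e-05), and the OFT mutant read higher than the OFT control. Nrp1 and Plxnd1, receptors of such cues, differed by 1.20 ± 0.16 and 0.94 ± 0.21, and Sema6d and Plxna4 by 1.25 ± 0.16 and 1.02 ± 0.16. Sema4a was lower, at -0.98 ± 0.22. The counts were 3 higher and 0 lower with the OFT control left out, and 7 and 0 with the OFT mutant left out. Among other guidance genes 5 of 33 were higher (15.2%) and 1 lower (3.03%), close to the 11.2% and 3.75% of all genes. The higher ones were the netrin receptors Unc5b (1.56 ± 0.18) and Unc5c (1.54 ± 0.15), the secreted cues Slit3 (1.33 ± 0.17) and Slit2 (0.76 ± 0.17), and Efnb2 (0.62 ± 0.17), an ephrin of arteries. Epha4 was the lower gene, at -0.80 ± 0.23. Higher counts in that list were 3 with the OFT control left out and 4 with the OFT mutant left out. Plxna4, Sema4a, Plxnd1, Epha4, Slit2 and Efnb2 missed the threshold with the OFT control left out (adjusted p = 0.105 to 0.625). Sema4a, Epha4 and Efnb2 missed the threshold with the OFT mutant left out (adjusted p = 0.114 to 0.186). Efnb2 missed the threshold with the LM control left out (adjusted p = 0.0946). Epha4 missed the threshold with LM and UM as 1 group (adjusted p = 0.0637), Sema6d, Sema4a and Efnb2 under another choice of probe sets (adjusted p = 0.0733 to 0.468), and Sema4a, Plxnd1, Epha4, Slit2 and Efnb2 under another pseudocount or other setting (adjusted p = 0.0541 to 0.181).

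Growth factors, chemokines and IGF binding proteins went both ways, with 8 of 31 higher (25.8%) and 2 lower (6.45%), against 11.2% and 3.75% of all genes. Cxcl14, a chemokine of skin and facial mesenchyme, read 35.2 and 3.14 in OFT, 618 and 584 in LM, and 389 and 482 in UM. It had the largest negative difference of any called gene, -3.48 ± 0.23, and the groups did not overlap. Cxcl12, a chemokine that guides crest and endothelial cells, read 1900 and 1881 in OFT, 996 and 839.7 in LM, and 694 and 796 in UM, and went the other way, at 1.17 ± 0.16. Igfbp5 and Igfbp7, which bind insulin-like growth factors, differed by 1.47 ± 0.19 and 1.31 ± 0.25. Angpt1 and Angpt2, ligands of the endothelial receptor Tek, differed by 1.20 ± 0.16 and 0.91 ± 0.16. The counts were 4 higher and 1 lower with the OFT control left out, and 4 and 1 with the OFT mutant left out. Angpt2 missed the threshold with the OFT control left out (adjusted p = 0.238). Igfbp7 missed the threshold with the OFT mutant left out (adjusted p = 0.0542). Igfbp7 missed the threshold with LM and UM as 1 group (adjusted p = 0.06), Igfbp7 and Angpt2 under another choice of probe sets (adjusted p = 0.0901 to 0.0991), and Igfbp7 and Angpt2 under another pseudocount or other setting (adjusted p = 0.0513 to 0.144).

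Transcription factor genes of the heart and the second heart field were called higher for 19 of 26 tested members and lower for 3. The counts were 13 higher and 2 lower with the OFT control left out, and 15 and 1 with the OFT mutant left out. Isl1, which marks second heart field progenitors, read 1201 and 1029 in OFT, 209 and 316 in LM, and 333 and 233 in UM, and differed by 1.93 ± 0.21. Gata4 and Zfpm2, a zinc finger factor and its cofactor, differed by 1.82 ± 0.21 and 1.95 ± 0.17. Hand2, a bHLH factor of heart and lower jaw, read 1195 and 1030 in OFT, 1119 and 936 in LM, and 11.8 and 32.97 in UM. OFT and LM overlapped for Hand2 and UM was far lower, so its difference of 2.27 ± 0.20 arose against UM. Tbx1, a T-box factor of pharyngeal mesoderm and endoderm, read 276 and 157 in OFT, 48.2 and 87.4 in LM, and 23.7 and 50.9 in UM, and differed by 1.57 ± 0.25. The lower members were Eya1 (-1.25), a cofactor of pharyngeal patterning, Nr2f1 (-1.08), a nuclear receptor of facial crest, and Fgf8 (-0.63), a ligand described with its family below. Tbx1 missed the threshold with the OFT control left out (adjusted p = 0.0783). Hand2 missed the threshold with LM and UM as 1 group (adjusted p = 0.322), and Gata4 and Tbx1 under another pseudocount or other setting (adjusted p = 0.0586 to 0.0778).

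The T-box family split. Of 10 tested members 5 were higher and 4 lower, and the counts were 3 higher and 2 lower with the OFT control left out, and 4 and 2 with the OFT mutant left out. Besides Tbx20 and Tbx1 the higher members were Tbx5 (1.77 ± 0.19), a factor of the heart's inflow side and the forelimb, Tbx18 (1.51 ± 0.19), a factor of epicardium and mural cells, and Tbx4 (0.54 ± 0.15). Tbx22, a factor of the palate, read 6.36 and 8.51 in OFT, 213 and 207 in LM, and 463 and 502 in UM. Tbx15, a factor of craniofacial mesenchyme and skin, read 26.97 and 19.2 in OFT, 131 and 163 in LM, and 126 and 169 in UM. Both were lower in OFT without overlap, by -3.16 ± 0.15 and -1.70 ± 0.17. Tbx3 and Tbx2 were lower at -0.70 and -0.63. Iroquois genes, homeobox factors that lie in clusters, also split. Irx1 read 208 and 193 in OFT, 91.4 and 100.2 in LM, and 50.5 and 67.1 in UM, and Irx2 read 206 and 245 in OFT, 82.6 and 114 in LM, and 26.01 and 35.1 in UM. Both were higher in OFT, at 1.11 ± 0.15 and 1.51 ± 0.15, with LM between OFT and UM. Irx3 read 129 and 136 in OFT, 380.3 and 342 in LM, and 663 and 681 in UM, and Irx5 read 70.8 and 41.5 in OFT, 199 and 185 in LM, and 323 and 362 in UM. Both were lower in OFT, at -1.67 ± 0.15 and -1.74 ± 0.17, again with LM in between. Irx1 missed the threshold with the OFT control left out (adjusted p = 0.0598).

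Forkhead genes were higher for 8 of 15 tested members and lower for 1, with counts of 4 higher and 1 lower with the OFT control left out, and 6 and 1 with the OFT mutant left out. Foxf1, a factor of splanchnic mesoderm, read 811 and 741 in OFT, 259.9 and 219 in LM, and 127 and 169.6 in UM, and differed by 1.88 ± 0.17. Foxa1 and Foxa2, factors of endoderm, differed by 1.94 ± 0.18 and 1.44 ± 0.16. Foxc1 and Foxc2, factors of vessel and crest mesenchyme, differed by 1.42 ± 0.15 and 1.20 ± 0.16. Foxl2, a factor of the eyelid and ovary, was lower and read 45.9 and 38.2 in OFT, 70.9 and 63.1 in LM, and 210.0 and 294 in UM, highest in UM. Of the Sox and Zic genes only 2 of 17 were called higher, a share near the 11.2% of all genes: Sox9 (0.74 ± 0.15) and Sox17 (0.78 ± 0.16). Zic1 was lower, at -1.20 ± 0.15. Foxc2, Sox17 and Sox9 missed the threshold with the OFT control left out (adjusted p = 0.0528 to 0.175). Sox17 and Sox9 missed the threshold with the OFT mutant left out (adjusted p = 0.174 to 0.219). Foxl2 and Zic1 missed the threshold with LM and UM as 1 group (adjusted p = 0.136 to 0.175), Sox17 under another choice of probe sets (adjusted p = 0.429), and Sox17 and Sox9 under another pseudocount or other setting (adjusted p = 0.0649 to 0.0788).

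Epicardial genes were called higher for 10 of 18 tested members and lower for 0, with a median difference of 0.60 and counts of 6 with the OFT control left out and 7 with the OFT mutant left out. Upk3b, a uroplakin of mesothelium, read 393 and 361 in OFT, 0.817 and 1.87 in LM, and 1.02 and 4.93 in UM. Wt1, the zinc finger factor of epicardium and mesothelium, read 88.4 and 89.6 in OFT, 0.981 and 1.67 in LM, and 1.35 and 8.83 in UM. Both were at the lower end of the scale in LM and UM and differed by 3.58 ± 0.15 and 1.79 ± 0.15. Tcf21, a bHLH factor of epicardium and of head muscle precursors, read 499 and 556 in OFT, 80.9 and 88.5 in LM, and 8.20 and 1.72 in UM, with LM between OFT and UM, and differed by 3.09 ± 0.16. Lrrn4 and Podxl, surface proteins, differed by 1.68 ± 0.17 and 1.45 ± 0.20. Upk3b, Wt1 and Lrrn4 passed the filter on low values through the OFT arrays alone and could differ only upward. The share of epicardial genes called higher is thus partly set by that filter. The other probe set of Podxl went the opposite way, at -0.50. The summed intensity of the 20 epicardial genes was 3762 to 3869 in OFT and 1654 to 1955 in LM and UM. In the endocardial cushion and valve list 16 genes were higher and 6 lower of 34, with counts of 9 higher and 3 lower with the OFT control left out, and 10 and 2 with the OFT mutant left out. The higher ones included Postn (1.45), periostin, a matrix protein of maturing valves, and the lower ones Msx1 and Msx2, which are also facial genes, and Snai2 (-0.95), a repressor of epithelial genes in crest. Podxl missed the threshold under another choice of probe sets (adjusted p = 0.0712), and Lrrn4 under another pseudocount or other setting (adjusted p = 0.0511).

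Hox genes of paralog groups 2 to 5 were on in OFT and low in UM. The group 6 genes were dim in OFT, at 32.2 and 31.8 for Hoxb6 and 13.9 and 14.9 for Hoxc6. Of 16 tested Hox genes 12 were called higher and 0 lower, and the count was 10 with the OFT control left out and 11 with the OFT mutant left out. The group 1 genes Hoxb1 and Hoxd1 were dim on all 6 arrays, at 10.5 and 19.6 in OFT for Hoxb1 and 16.5 and 6.95 for Hoxd1, and were not tested. Groups 2 to 6 held 13 tested genes, of which 12 were higher. Hoxa4, Hoxa5, Hoxb4, Hoxb5 and Hoxc5 passed the filter of 19.94 through the OFT arrays alone. Outside OFT, Hoxc4 and Hoxd3 were above it only on the LM mutant array, and Hoxb6 only on the UM mutant array. The filter needs 2 arrays, so all of these genes could be tested only because they were above it in OFT. Much of the share called higher is thus set by the filter. Groups 7 to 13 held 18 genes with a probe set, of which 3 reached the level needed for testing, and those 3 were not called and read at most 29.5. Hoxb3 read 728 and 749 in OFT, 60.9 and 152 in LM, and 10.7 and 14.5 in UM. It was far above the others in OFT, intermediate in LM and low in UM, and differed by 3.34 ± 0.21 (adjusted p = 8.76e-06). Hoxa2, the most anterior of these genes in the arches, read 237 and 202 in OFT, 131 and 163 in LM, and 4.39 and 8.63 in UM. LM came closer to OFT for Hoxa2 than for any other Hox gene called, while UM was near 0, and the difference was 1.60 ± 0.16. Hoxb2 read 264 and 311 in OFT, 46.6 and 96.2 in LM, and 3.52 and 2.92 in UM, and differed by 2.42 ± 0.18. Hoxa3, a gene of the pharyngeal arches behind the hyoid, read 319 and 193 in OFT, 22.8 and 38.5 in LM, and 1.05 and 1.73 in UM, and differed by 2.62 ± 0.21. Hoxd3 was higher at 2.34. From group 4 on, LM was dim or nearly as dim as UM. Hoxa5 read 199 and 186 in OFT, 6.36 and 11.6 in LM, and 5.08 and 8.85 in UM, and Hoxb5 read 147 and 117 in OFT, 3.64 and 0.550 in LM, and 0.513 and 1.52 in UM. They differed by 2.49 ± 0.15 and 2.29 ± 0.15, and no LM or UM array came near OFT. Hoxc4, Hoxb4 and Hoxa4 differed by 2.41 ± 0.18, 2.35 ± 0.22 and 1.93 ± 0.16. Hoxc5 read 56.6 and 41.9 in OFT, 14.05 and 18.2 in LM, and 2.30 and 1.77 in UM, higher in OFT and called. Hoxb6 had a smaller called difference of 0.65 ± 0.15, and Hoxc6, at -0.09 ± 0.15, did not pass. In 11 of the 13 genes of groups 2 to 6 the LM mean was above the UM mean. The LM mutant array read higher than the LM control for Hoxb3, Hoxb2, Hoxa3 and Hoxa2, with 1 array each and no test. Hoxb4 missed the threshold under another pseudocount or other setting (adjusted p = 0.0591).

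**Figure D4:**
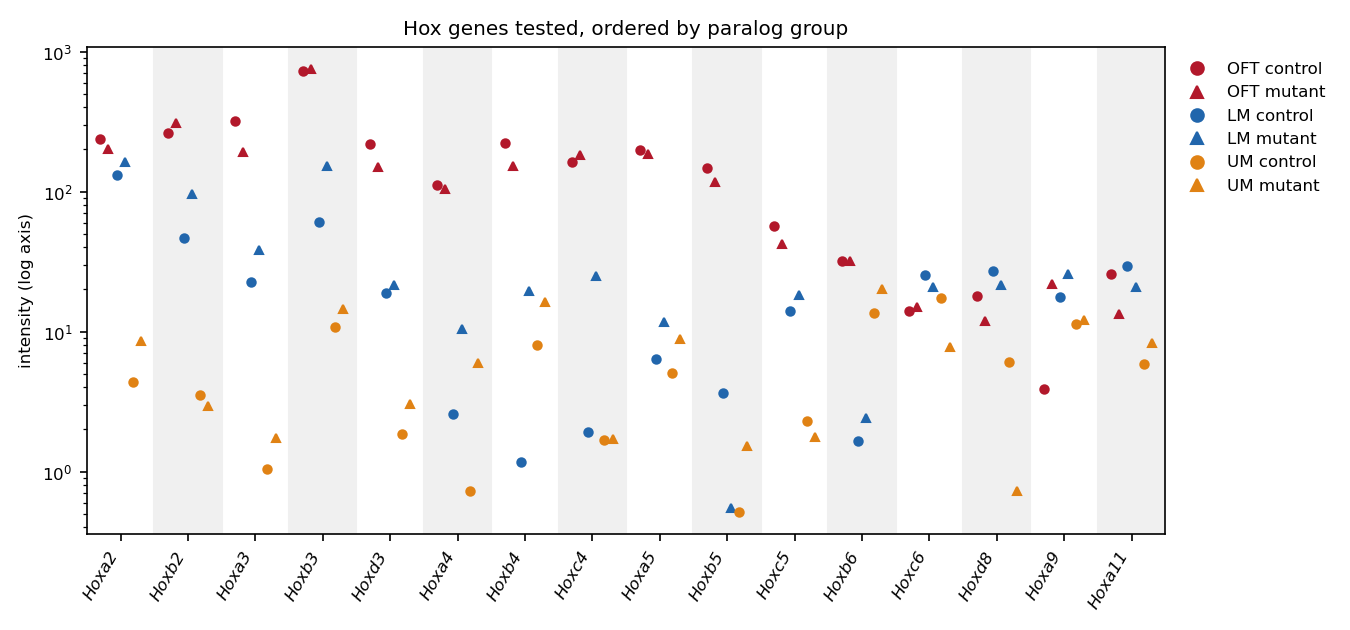
Intensity on each of the 6 arrays (log axis) for the 16 tested Hox genes, ordered by paralog group from left to right, with OFT in red, LM in blue and UM in orange. Red points stand above the others from Hoxa2 to Hoxb6 and fall among them from Hoxc6 to Hoxa11, where no array reads above 29.5.

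Homeobox and patterning genes of the face were lower in OFT. Of 30 tested members 26 were called lower and 0 higher, against 3.75% of all genes, and 20 had both OFT arrays below the other 4, against 17.5%. The median difference was -1.49, and the lower count was 21 with the OFT control left out and 18 with the OFT mutant left out. It was 14 with LM and UM fitted as 1 group and 16 with a pseudocount of 1. The genes differed in how they sat between LM and UM. Pitx1, a homeobox factor of the lower jaw and hindlimb, read 9.45 and 8.20 in OFT, 1032 and 1189 in LM, and 124 and 161 in UM, with LM above UM. Alx1, a homeobox factor of frontonasal mesenchyme, read 126 and 145 in OFT, 264 and 284 in LM, and 2702 and 2588 in UM, with UM above LM. Pax3, a paired-box factor of neural crest, read 3.65 and 11.9 in OFT, 142 and 207 in LM, and 646 and 568 in UM, again highest in UM. OFT was lowest for all 3, and the differences were -3.45 ± 0.15, -2.44 ± 0.15 and -3.19 ± 0.17. Msx1, a homeobox factor of growing facial mesenchyme and teeth, read 65.4 and 72.1 in OFT, 768 and 722 in LM, and 1211 and 1668 in UM. Lhx8, a LIM homeobox factor of the oral side, read 73.8 and 79.8 in OFT, 1101 and 866 in LM, and 805 and 709 in UM. Both were strong in LM and in UM, and differed by -3.40 ± 0.17 and -3.03 ± 0.16. Dlx5, a distal-less factor of the lower jaw, read 106 and 79.3 in OFT, 876 and 764 in LM, and 225 and 280.1 in UM, and differed by -1.98 ± 0.17. LM was above UM for Dlx5. Dlx1 read 136 and 75.97 in OFT, 679.9 and 403 in LM, and 145 and 236 in UM. Dlx6 read 13.8 and 20.4 in OFT, 105 and 132 in LM, and 35.3 and 8.77 in UM. Barx1, a factor of tooth and stomach mesenchyme, read 93.3 and 64.5 in OFT, 545 and 333 in LM, and 159.7 and 217 in UM. LM was above UM for these 3 genes as well. Dlx6 overlapped between OFT and UM but was called at -0.85 ± 0.21. Lhx6 (-1.63), Shox2 (-1.57), Prrx1 (-1.63) and Msx2 (-1.65) were lower in OFT than on any LM or UM array. Otx2, a factor of the forebrain and eye, read 3.49 and 0.207 in OFT, 4.001 and 0.624 in LM, and 194 and 181 in UM, so its difference of -1.36 ± 0.15 arose against UM alone. Gsc, a factor of the jaw and ear, at -0.39 ± 0.15, and Prrx2, at -0.46 ± 0.15, did not pass. Alx1 missed the threshold with LM and UM as 1 group (adjusted p = 0.158).

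**Figure D5:**
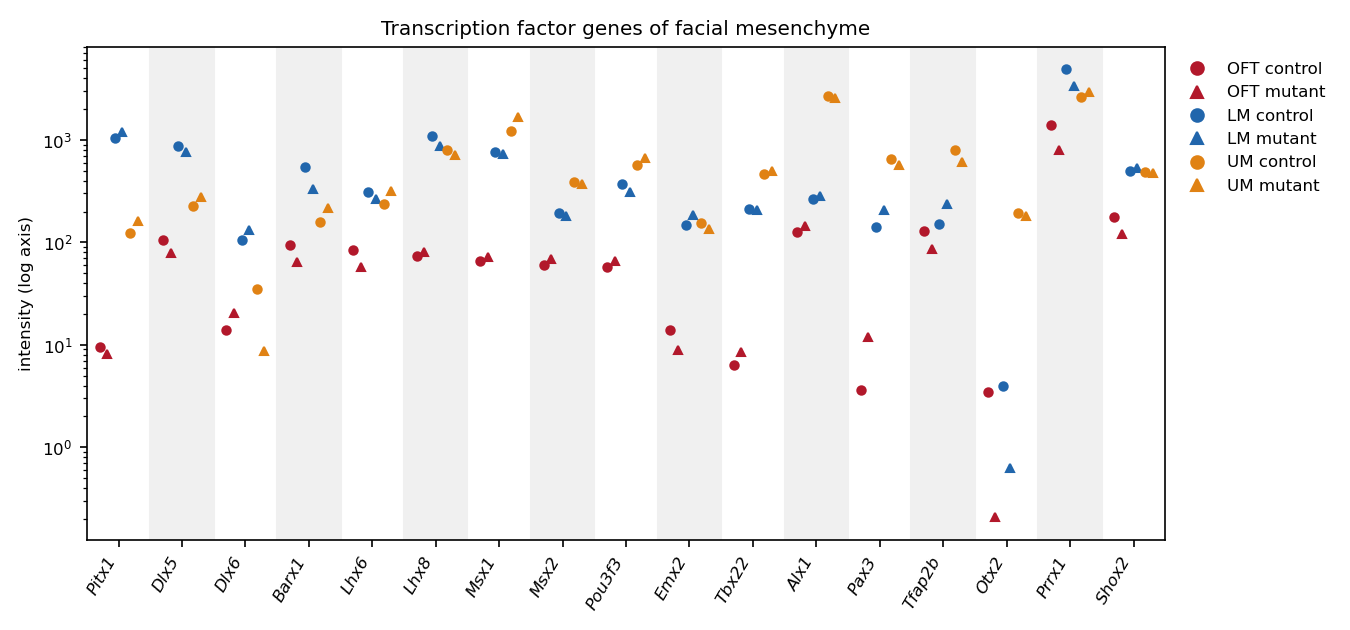
Intensity on each of the 6 arrays (log axis) for 17 transcription factor genes of facial mesenchyme, with OFT in red, LM in blue and UM in orange. Red points lie lowest for most genes, blue points are above orange ones for Pitx1, Dlx5 and Barx1, and orange points are above blue ones for Alx1, Pax3 and Otx2.

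Genes of glia and neural crest went both ways. Of 17 tested glia and neural crest genes 6 were higher and 5 lower, with counts of 3 higher and 4 lower with the OFT control left out, and 5 and 2 with the OFT mutant left out. Tfap2b and Tfap2a, AP-2 factors of crest and skin, were lower. Tfap2b read 129.6 and 86.9 in OFT, 149 and 237 in LM, and 792 and 613 in UM. Tfap2a read 110.0 and 86.1 in OFT, 125 and 237 in LM, and 421 and 422 in UM. UM was highest for both, and the differences were -1.53 ± 0.22 and -1.24 ± 0.21. Twist1, a bHLH factor of head mesenchyme, differed by -1.13 ± 0.18. Higher in OFT were Ets1, an ETS factor of cardiac crest and endothelium (1.26 ± 0.15), Pmp22, a myelin protein gene also active in mesenchyme (1.32 ± 0.17), and Gfra1, a GDNF receptor (1.11 ± 0.16). Sox10, the defining factor of crest-derived glia, read 57.5 and 32.2 in OFT, 33.1 and 34.4 in LM, and 37.1 and 25.3 in UM, and Foxd3 read 19.1 and 21.3 in OFT, 5.70 and 15.3 in LM, and 16.4 and 23.005 in UM. Neither passed, at 0.24 ± 0.16 and 0.16 ± 0.15. Tfap2a and Twist1 missed the threshold with the OFT mutant left out (adjusted p = 0.0927 to 0.102). Tfap2b, Pmp22 and Tfap2a missed the threshold with LM and UM as 1 group (adjusted p = 0.0567 to 0.134), and Tfap2b, Tfap2a and Twist1 under another pseudocount or other setting (adjusted p = 0.0547 to 0.0776).

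Wnt genes went both ways, with more of them lower. Of 43 tested members 12 were called lower and 7 higher, shares of 27.9% and 16.3% against 3.75% and 11.2% of all genes. The counts were 1 higher and 6 lower with the OFT control left out, and 3 and 7 with the OFT mutant left out. Several genes that the pathway is known to induce were lower. Apcdd1, a membrane inhibitor induced by Wnt, read 370.2 and 277 in OFT, 2175 and 2169 in LM, and 2195 and 2221 in UM, and differed by -2.66 ± 0.16. Lef1, the nuclear partner of beta-catenin, read 184 and 148 in OFT, 559.8 and 570.3 in LM, and 959 and 955 in UM, and differed by -1.96 ± 0.15. Axin2, the most used reporter of the pathway, read 128 and 59.7 in OFT, 401 and 293 in LM, and 277 and 356 in UM, and differed by -1.57 ± 0.22. OFT was below LM and UM for all 3, and LM and UM were close to each other except for Lef1. Nkd1 (-0.77) and Lgr5 (-1.06), also induced by Wnt, were lower. Wif1, a secreted inhibitor, read 15.7 and 14.2 in OFT, 35.2 and 50.9 in LM, and 161 and 105 in UM. Fzd10, a receptor, read 17.7 and 24.99 in OFT, 69.02 and 78.6 in LM, and 85.3 and 114 in UM. Both were lower, at -1.23 ± 0.18 and -1.14 ± 0.15. On the higher side, Sfrp1, a secreted inhibitor, read 1051 and 554 in OFT, 274 and 247 in LM, and 267 and 290.2 in UM, and differed by 1.40 ± 0.21. The ligand gene Wnt11 and the receptor gene Fzd1 were higher at 0.78 and 1.05. Wnt5a, at -0.10 ± 0.15, did not pass. Sfrp1 missed the threshold with the OFT control left out (adjusted p = 0.0653). Wif1 missed the threshold with LM and UM as 1 group (adjusted p = 0.0874), and Axin2 and Sfrp1 under another pseudocount or other setting (adjusted p = 0.0549 to 0.0563).

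Hedgehog genes were higher for 6 of 13 tested members and lower for 2, with counts of 2 higher and 0 lower with the OFT control left out, and 4 and 0 with the OFT mutant left out. The main counts are shares of 46.2% higher and 15.4% lower, against 11.2% and 3.75% of all genes. Shh, the ligand made by pharyngeal endoderm and oral epithelium, read 651 and 683 in OFT, 249.6 and 277 in LM, and 135 and 100.2 in UM. Its order was OFT, LM, UM, and it differed by 1.74 ± 0.16. Ptch1, Hhip and Gli1, which the pathway induces, differed by 0.97 ± 0.15, 1.44 ± 0.18 and 0.69 ± 0.16. Ptch1 read 2476 and 2350 in OFT, 1445 and 1445 in LM, and 996 and 1046 in UM, with the same order of origins. Dhh, a ligand of Schwann and endothelial cells, and Boc, a coreceptor, differed by 0.92 ± 0.15 and 0.70 ± 0.15. Gli2 and Cdon were lower at -0.51 and -0.55. Retinoic acid genes were lower for 5 (29.4%) and higher for 3 (17.6%) of 17. Crabp2 and Crabp1, which bind retinoic acid in the cytoplasm, differed by -1.57 ± 0.19 and -1.17 ± 0.22, and Cyp26a1, which degrades it, by -1.21 ± 0.21. Crabp1 overlapped between OFT and LM, at 1267 and 668 in OFT, 1417 and 1064 in LM, and 3286 and 4016 in UM. Among the enzymes that make it, Aldh1a3 read 17.2 and 12.03 in OFT, 21.2 and 28.7 in LM, and 227 and 221 in UM, high in UM alone. Aldh1a2 read 422 and 348 in OFT, 214 and 269 in LM, and 210.2 and 193 in UM. Aldh1a1 read 50.4 and 63.2 in OFT, 7.57 and 5.67 in LM, and 17.2 and 10.9 in UM. The latter pair were highest in OFT. Aldh1a3 differed by -1.37 ± 0.15, against 0.72 ± 0.17 for Aldh1a2 and 1.07 ± 0.16 for Aldh1a1. The retinoic acid counts were 1 higher and 4 lower with the OFT control left out, and 0 and 2 with the OFT mutant left out. Ptch1, Dhh, Boc, Gli1 and Aldh1a2 missed the threshold with the OFT control left out (adjusted p = 0.0839 to 0.512). Boc, Gli1, Cyp26a1, Crabp1, Aldh1a1 and Aldh1a2 missed the threshold with the OFT mutant left out (adjusted p = 0.0686 to 0.188). Gli1, Aldh1a3 and Crabp1 missed the threshold with LM and UM as 1 group (adjusted p = 0.0605 to 0.247), and Boc, Gli1, Cyp26a1, Crabp1 and Aldh1a2 under another pseudocount or other setting (adjusted p = 0.0668 to 0.104).

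Of 23 FGF genes 4 were higher and 2 lower, shares of 17.4% and 8.7% beside the 11.2% and 3.75% of all genes. Fgf8, a ligand of facial and pharyngeal epithelium, read 0.470 and 0.725 in OFT, 3.03 and 10.9 in LM, and 27.4 and 40.5 in UM, and had a difference of -0.63 ± 0.15. Dusp6, a phosphatase induced by FGF, read 669 and 572 in OFT, 823 and 948 in LM, and 1370 and 1459 in UM, and differed by -0.82 ± 0.16. Both were lowest in OFT. The decoy receptor gene Fgfrl1 differed by 1.10 ± 0.16 and Fgfr3, a receptor of cartilage, by 0.94 ± 0.18. Fgf5 (0.75 ± 0.18) and Fgf13 (0.62 ± 0.15) were also higher. The counts were 1 higher and 0 lower with the OFT control left out, and 2 and 0 with the OFT mutant left out. Fgfr3, Dusp6, Fgf5, Fgf8 and Fgf13 missed the threshold with the OFT control left out (adjusted p = 0.0516 to 0.444). Dusp6, Fgf5, Fgf8 and Fgf13 missed the threshold with the OFT mutant left out (adjusted p = 0.191 to 0.394). Fgf13 missed the threshold with the LM control left out (adjusted p = 0.0528). Dusp6, Fgf5 and Fgf8 missed the threshold with LM and UM as 1 group (adjusted p = 0.0771 to 0.185), Fgfr3 and Fgf13 under another choice of probe sets (adjusted p = 0.122 to 0.146), and Fgfr3, Dusp6, Fgf5, Fgf8 and Fgf13 under another pseudocount or other setting (adjusted p = 0.0737 to 0.133).

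Markers of other cell types were compared in the same arrays, since any of them could have been collected with the tissue. Endothelial genes were higher for 13 of 27 tested members and lower for 0, and the count was 4 with the OFT control left out and 11 with the OFT mutant left out. Pecam1, an adhesion protein of endothelium, read 227 and 229 in OFT, 129 and 128 in LM, and 76.7 and 87.8 in UM. Tek, the angiopoietin receptor, read 377 and 318 in OFT, 109 and 93.1 in LM, and 98.5 and 109 in UM. Vwf, a clotting protein stored in endothelium, read 260.2 and 113 in OFT, 22.99 and 10.5 in LM, and 19.3 and 42.6 in UM. The differences were 0.94 ± 0.15, 1.49 ± 0.16 and 1.91 ± 0.26, and in OFT Vwf read more in the control. Cd34, Tie1 and Prox1 differed by 1.45 ± 0.19, 1.04 ± 0.22 and 1.09 ± 0.15. The summed intensity of the 28 endothelial genes was 4647 to 5444 in OFT and 2817 to 3202 in LM and UM, and Lyve1 was under 20 on all 6 arrays. The part of endothelium in the vasoactive and Notch results was not tested. Tie1 and Pecam1 missed the threshold with the OFT control left out (adjusted p = 0.0852 to 0.333). Prox1 missed the threshold with the OFT mutant left out (adjusted p = 0.0548). Vwf and Tie1 missed the threshold under another pseudocount or other setting (adjusted p = 0.0609 to 0.124).

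Of 17 tested macrophage and leukocyte genes 4 were higher, and the count was 0 with the OFT control left out and 3 with the OFT mutant left out. The main count is a share of 23.5%, against 11.2% of all genes. Csf1r, the growth factor receptor of macrophages, read 552 and 398 in OFT, 222 and 226 in LM, and 242 and 244 in UM. Ctss, C1qa and C1qc, a lysosomal protease and complement chains of the same cells, differed by 1.08 ± 0.18, 0.64 ± 0.16 and 0.63 ± 0.16. The summed intensity of 19 such genes was 1314 to 1795 in OFT and 799.7 to 948 in LM and UM. Blood genes went the other way. Erythroid genes were lower for 6 of 12 and higher for 0, and the lower count was 0 with the OFT control left out and 1 with the OFT mutant left out. Hbb-bh1, an embryonic globin, read 5197 and 6246 in OFT, 13748 and 8657 in LM, and 8790 and 12127 in UM, and differed by -0.89 ± 0.22. Car2, a carbonic anhydrase, Alas2, which starts heme synthesis, and Gata1, the red cell factor, differed by -0.99 ± 0.19, -0.61 ± 0.17 and -0.60 ± 0.15. Rhag and Slc4a1, red cell membrane proteins, differed by -0.65 ± 0.15 and -0.60 ± 0.17. The 13 erythroid genes summed to 20720 to 25158 in OFT and 29929 to 48171 in LM and UM. Of 6 platelet genes Ppbp (-0.99 ± 0.17) and Pf4 (-0.76 ± 0.16), both platelet chemokines, were lower. Itga2b, Treml1, Gp5 and Gp1bb, with differences of -0.24, -0.27, -0.28 and 0.07, did not pass. Lower globin signal thus moved with OFT, and its part in the other differences was not tested. Ctss, Csf1r, C1qa, C1qc, Car2, Hbb-bh1, Rhag, Alas2, Slc4a1, Gata1, Ppbp and Pf4 missed the threshold with the OFT control left out (adjusted p = 0.104 to 0.599). C1qa, C1qc, Hbb-bh1, Rhag, Alas2, Slc4a1, Gata1 and Pf4 missed the threshold with the OFT mutant left out (adjusted p = 0.0579 to 0.259). Alas2 and Gata1 missed the threshold with the LM control left out (adjusted p = 0.0566 to 0.106). Slc4a1 missed the threshold with the LM mutant left out (adjusted p = 0.0803). C1qa, C1qc, Alas2 and Slc4a1 missed the threshold with LM and UM as 1 group (adjusted p = 0.0642 to 0.106), Slc4a1 under another choice of probe sets (adjusted p = 0.181 to 0.659), and Ctss, Csf1r, C1qa, C1qc, Car2, Hbb-bh1, Rhag, Alas2, Slc4a1, Gata1, Ppbp and Pf4 under another pseudocount or other setting (adjusted p = 0.0508 to 0.159).

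Surface epithelium genes were lower for 4 of 19 tested members and higher for 0, and the lower count was 2 with the OFT control left out and 2 with the OFT mutant left out. Krt14, a keratin of basal skin cells, read 2.51 and 2.09 in OFT, 97.7 and 51.7 in LM, and 81.3 and 123 in UM, and differed by -1.78 ± 0.21. Trp63, the factor of stratified epithelium, read 151 and 142 in OFT, 285 and 282 in LM, and 281 and 274 in UM, and differed by -0.81 ± 0.15. Krt15 and Krt5, further keratins, differed by -1.01 ± 0.24 and -0.89 ± 0.19, and Krt15 overlapped between the groups. The summed epithelial signal overlapped between the groups, at 3285 to 3606 in OFT and 2705 to 4297 in LM and UM. Pharyngeal and gut endoderm genes were higher for 5 of 9 tested members and lower for 1, with counts of 4 higher and 1 lower with the OFT control left out, and 4 and 0 with the OFT mutant left out. Besides Shh, Foxa1, Foxa2 and Sox17 the higher members included Hhex, a homeobox factor of foregut and endothelium, which read 166 and 135 in OFT, 52.5 and 44.1 in LM, and 46.9 and 37.4 in UM, and differed by 1.24 ± 0.15. Pax9, a paired-box factor of pharyngeal pouches and of facial mesenchyme, read 115 and 77.1 in OFT, 113 and 132 in LM, and 277 and 301 in UM. OFT and LM overlapped for Pax9, and its difference was -0.81 ± 0.17. The 12 endoderm genes summed to 2016 to 2045 in OFT and 905 to 1485 in LM and UM, and Nkx2-1 was under 20 on all 6 arrays. Krt15 and Trp63 missed the threshold with the OFT control left out (adjusted p = 0.128 to 0.512). Krt5, Trp63 and Pax9 missed the threshold with the OFT mutant left out (adjusted p = 0.12 to 0.345). Krt15 and Pax9 missed the threshold with LM and UM as 1 group (adjusted p = 0.12 to 0.203), and Krt15, Krt5 and Pax9 under another pseudocount or other setting (adjusted p = 0.0542 to 0.154).

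Neuron genes were higher for 12 of 19 tested members and lower for 0, and the count was 5 with the OFT control left out and 12 with the OFT mutant left out. Nefm, a neurofilament chain, read 1515 and 1011 in OFT, 119 and 278 in LM, and 344 and 87.3 in UM, and differed by 2.57 ± 0.41, with the largest SE of the genes named here. Stmn4, a stathmin of growing neurites, read 177 and 199 in OFT, 9.09 and 7.18 in LM, and 63.5 and 12.4 in UM, and differed by 2.10 ± 0.24. Stmn2, a related gene, read 572 and 321 in OFT, 24.3 and 53.7 in LM, and 386 and 325 in UM, and for it OFT and UM overlapped. Ret and Ntrk3, receptors for GDNF family ligands and for neurotrophin, were higher without overlap. Ret read 227 and 93.3 in OFT, 2.64 and 13.8 in LM, and 36.6 and 24.1 in UM. Ntrk3 read 115 and 119 in OFT, 18.99 and 9.24 in LM, and 11.97 and 8.54 in UM. The differences were 1.86 ± 0.25 and 1.76 ± 0.15. Nefl, Prph and Ina, further filament genes of neurons, differed by 2.15 ± 0.40, 1.32 ± 0.20 and 1.31 ± 0.25. Of the neurogenic factors 5 of 22 were higher and 1 lower, with counts of 3 higher and 1 lower with the OFT control left out, and 5 and 0 with the OFT mutant left out. The main counts of neurogenic factors are shares of 22.7% higher and 4.55% lower, against 11.2% and 3.75% of all genes. The higher factors included Ntrk2, a neurotrophin receptor (0.87 ± 0.15), and Gata3, a factor of sympathetic neurons and the pharynx (0.89 ± 0.16). Neurog1, a bHLH factor of cranial sensory ganglia, read 1.57 and 0.903 in OFT, 0.834 and 0.852 in LM, and 52.5 and 32.6 in UM, so its difference of -0.57 ± 0.16 arose against UM. The 21 neuron genes summed to 4333 to 6674 in OFT and 1280 to 3344 in LM and UM, and 11 of the 12 called ones read more in the OFT control than in the OFT mutant. Stmn2, Prph, Ina, Gata3, Ntrk2 and Neurog1 missed the threshold with the OFT control left out (adjusted p = 0.0806 to 0.563). Neurog1 missed the threshold with the OFT mutant left out (adjusted p = 0.224). Neurog1 missed the threshold with the LM mutant left out (adjusted p = 0.0669). Stmn2, Ina, Gata3 and Neurog1 missed the threshold with LM and UM as 1 group (adjusted p = 0.0565 to 0.391), and Nefm, Nefl, Stmn2, Ina, Ret and Neurog1 under another pseudocount or other setting (adjusted p = 0.0555 to 0.159).

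Head and skeletal muscle genes were higher for 7 of 17 tested members and lower for 3. These counts were 3 higher and 2 lower with the OFT control left out, and 3 and 1 with the OFT mutant left out. Acta1, the skeletal alpha actin, which embryonic heart also makes, read 411 and 598 in OFT, 52.01 and 83.97 in LM, and 23.3 and 36.3 in UM, and differed by 2.76 ± 0.15. Msc and Tnnt1, a bHLH factor of jaw muscle and a slow troponin, were also called. Msc read 91.1 and 158 in OFT, 86.5 and 109 in LM, and 12.98 and 10.7 in UM. Tnnt1 read 239.8 and 158 in OFT, 218 and 211 in LM, and 19.8 and 23.3 in UM. OFT and LM overlapped for both and UM was low, and the differences were 1.02 ± 0.18 and 0.98 ± 0.17. Lhx2 and Pax7 were lower at -1.56 ± 0.16 and -1.03 ± 0.18, and were highest in UM, and Pax7 overlapped between OFT and LM. The muscle genes Myf6, Myh8 and Mymk were under 20 on all 6 arrays. Cartilage, bone and tendon genes were higher for 7 of 19 (36.8%) and lower for 2 (10.5%), against 11.2% and 3.75% of all genes. Mgp and the cartilage collagens described above were among the higher ones. Col9a3, Col11a1 and Col9a2 differed by 1.24 ± 0.19, 1.15 ± 0.16 and 0.96 ± 0.15. Runx1 (-0.81) and Mkx (-0.87), a factor of tendon, were lower. The cartilage, bone and tendon counts were 3 higher and 0 lower with the OFT control left out, and 5 and 0 with the OFT mutant left out. Tnnt1, Col9a3 and Col11a1 missed the threshold with the OFT control left out (adjusted p = 0.0624 to 0.236). Pax7, Msc and Col9a2 missed the threshold with the OFT mutant left out (adjusted p = 0.0699 to 0.146). Lhx2, Pax7, Msc and Tnnt1 missed the threshold with LM and UM as 1 group (adjusted p = 0.2 to 0.409), and Pax7 under another pseudocount or other setting (adjusted p = 0.108).

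Ion channel and calcium handling genes were higher for 15 of 29 tested members and lower for 1, with counts of 12 higher and 0 lower with the OFT control left out, and 11 and 1 with the OFT mutant left out. Atp1b1, the beta subunit of the sodium pump, read 1433 and 1689 in OFT, 42.3 and 46.5 in LM, and 100.1 and 105 in UM. UM was above LM, OFT was far above both, and the difference was 3.97 ± 0.15. Pln, phospholamban, the brake on the calcium pump of the reticulum, read 497 and 955 in OFT, 15.2 and 16.97 in LM, and 12.2 and 18.5 in UM, and differed by 3.92 ± 0.19. The pump gene Atp2a2 differed by 0.38 ± 0.17 and did not pass. Slc8a1, the sodium-calcium exchanger, Jph2, which ties reticulum to the surface membrane, and Trdn, triadin, differed by 2.27 ± 0.15, 1.94 ± 0.15 and 1.70 ± 0.19. Pln, Jph2 and Trdn passed the filter on low values through the OFT arrays alone and could differ only upward. The share of this list called higher is thus partly set by that filter. Abcc9, the regulatory subunit of the potassium channel of mural cells that senses ATP, read 319 and 351 in OFT, 86.005 and 70.8 in LM, and 65.99 and 89.1 in UM, and differed by 1.74 ± 0.16. Its pore subunit gene Kcnj8 was higher at 1.61. Gja1, connexin 43, a gap junction protein of crest and mesenchyme, read 2626 and 3214 in OFT, 5572 and 6499 in LM, and 5378 and 4882 in UM. It was the called gene that was lower, at -0.93 ± 0.16.

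Some of the largest differences fell outside these lists. Sh3bgr, a small protein gene of heart and skeletal muscle, read 417 and 654 in OFT, 2.07 and 21.96 in LM, and 9.70 and 1.69 in UM, and differed by 3.79 ± 0.21. That value rests on its brightest probe set, and its other probe sets differed by -0.23 and -0.10. Iigp1, a GTPase induced by interferon, read 735 and 834 in OFT, 52.7 and 39.7 in LM, and 20.7 and 27.8 in UM, and differed by 3.62 ± 0.16. Tcf24, a bHLH factor gene, read 708 and 783 in OFT, 66.2 and 148 in LM, and 9.16 and 10.4 in UM, with LM above UM, and differed by 3.38 ± 0.20. OFT was highest for all 3 without overlap. Gask1b, which encodes a Golgi kinase-like protein, differed by 3.14 ± 0.16. On the lower side AI606473 read 8.69 and 23.8 in OFT, 299 and 366 in LM, and 367 and 373 in UM, and differed by -3.001 ± 0.16. Crym, a thyroid hormone-binding crystallin, read 44.6 and 61.7 in OFT, 228 and 201 in LM, and 1045 and 1297 in UM, with UM far above LM, and differed by -2.68 ± 0.16. Pou3f3, Emx2 and Mab21l1, regulators of facial and brain patterning, differed by -2.39 ± 0.16, -2.11 ± 0.16 and -1.98 ± 0.15. OFT was below the other arrays for each. Crym missed the threshold with LM and UM as 1 group (adjusted p = 0.0547).

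Within OFT the control and the mutant array did not differ in the same way for every group, and with 1 array each these are values without a test. Of the 1461 higher genes 924 read more in the OFT control (63.2%). Among called collagens 14 of 16 did, with a median mutant-minus-control difference of -0.41, and among called neuron genes 11 of 12, with a median of -0.57. Among called endothelial genes 10 of 13 did, with a median of -0.32. Heart muscle genes went the other way, with 47 of 56 higher in the OFT mutant and a median of 0.26. Of the called genes of fatty acid and energy metabolism 8 of 9 did too, with a smaller median of 0.08. The OFT arrays also differed in Y-linked signal, as given above, and whether genotype, embryo or dissection moved these values cannot be told apart.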

How the data were processed

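RNA of the 6 samples was measured on 1-colour mouse arrays with 1 value per probe set. The intensity values were taken from the series' deposited value table as the authors gave it, and which software produced them is not stated in the labels. Every value column was mapped to a sample by its label (0 not mapped). Values were taken as log2(intensity + 32) with no further scaling, and a gene was represented by its brightest probe set over the 6 arrays. Genes above an intensity of 19.94, the 40th percentile, on at least 2 arrays were tested (13011). A gene above it on the 2 OFT arrays alone was thus tested, and could differ only upward. limma 3.58.1 in R 4.3.3 was used with terms for OFT, LM, UM and genotype (2 residual and 7.392 prior degrees of freedom), and p-values were adjusted by Benjamini-Hochberg over all tested genes at a threshold of 0.05. A second fit added the product of OFT and genotype. Both fits were run on simulated data with independent noise on each array and no effect of embryo or dissection, so those runs do not bear on such effects. The number of arrays limits the precision.

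The comparison, gene lists and naming rule were chosen with earlier results of these data known. Named genes are the 15 with the largest differences each way outside heart muscle, up to 6 called members with the largest differences of each list, and the 5 with the smallest p for the product. Other members are named to complete a family or were chosen after their values were seen, and leaving out an array was not examined for them one by one. Of the listed genes 76 have no probe set of their own. Of 243 named genes 150 have several probe sets, of which 30 hold probe sets of opposite sign, 2 of them, Efnb2 and Podxl, by over 0.5. For Apcdd1, Flnc, Sox17, Sema4a, Hbb-bh1, Slc4a1, Krt14, Ppargc1a and Rrm2 the brightest probe set is of the x type, which can also bind other transcripts. Alternatives were the pseudocount, the filter, quantile normalization, median centring, the probe set rule, an intensity trend, all 8 arrays, LM and UM as 1 group, no genotype term and each array left out.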

Additional observations from a re-analysis of the deposited data

Results flagged for a closer look

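Gp1bb, a subunit of the platelet receptor for von Willebrand factor, had an OFT difference of 0.30 (log2) among the control arrays and -0.16 among the mutant arrays, a difference of -0.462 between mutants and controls. The OFT array of each genotype moved the opposite way to the other. The test of this difference itself by limma did not pass, and Gp1bb was not called between OFT and the other origins.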

How the results depend on the processing

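With 1 array per origin and genotype, counts of calls moved with the arrays and settings used. The 1949 called genes (1461 higher and 488 lower) became 732 (569 and 163) with a pseudocount of 1 in place of 32. With that pseudocount the higher counts were 14 for elastic fibres, 8 for collagens, 11 for matrix proteases, 4 for integrins and laminins, 7 for focal adhesion, 6 for vasoactive genes, 3 for Notch, 8 for BMP and TGF-beta, 5 for semaphorins, 8 for heart transcription factors, 6 for epicardium, 5 for endothelium, 3 for neurons, 3 for glycolysis and hypoxia, 5 for immediate early genes, 4 for growth factors, 4 for head muscle, 4 for fatty acid genes, 3 for Wnt and 3 for Eph and Slit genes. Lower were 16 facial, 6 Wnt, 3 cushion, 2 retinoic acid, 1 crest and 1 erythroid genes. Smooth muscle had 17 higher calls and Hox 11. The lower count over all genes was 320 without the filter on low values and 302 with LM and UM as 1 group. Without the filter, 1 gene, Ttr, was called for a different OFT effect in the genotypes (difference -4.49 ± 0.36, adjusted p = 0.00206, limma), against 0 with it. Leaving out each array in turn gave 547 to 3136 called genes, 450 to 2145 higher and 97 to 1026 lower. The lowest counts came with the OFT control left out, where the lone OFT array is assumed to vary like the others. Averaging over probe sets gave 1228 higher and 713 lower genes, a higher share of 63.3% in place of 1461 of 1949. The other alternatives kept the counts over all genes within 1.5 times. With LM and UM as 1 group, higher counts were 7 for neurons, 3 for head muscle, 2 for macrophages and 2 for imprinted genes, and lower counts were 14 for facial genes, 2 for T-box genes, 3 for crest genes and 3 for retinoic acid genes. Averaging probe sets gave 4 higher growth factor and 1 higher FGF genes and 5 lower cell cycle genes, and all 8 arrays gave 4 lower cell cycle genes. Under these 3 settings further lists moved by over 1.5 times only where the counts were 4 or fewer. List counts under the other settings are not described here. The difference of Gp1bb ran from -0.165 (OFT control left out) to 0.297 (OFT mutant left out) and was -0.064 with the LM control left out. That of Gp5 ran from -0.558 (OFT control left out) to 0.007 (OFT mutant left out). Neither gene was called. Of 239 called genes chosen by the naming rule, 152 were called both with the OFT control and with the OFT mutant left out. The causes were not tested. The product of OFT and genotype could not be fitted with an array left out, since no residual degree of freedom remains. Differences of genes dim in LM and UM are limited by signal over background. No paired analysis was possible because each origin and genotype has 1 array.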

Other observations

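Further gene lists outside patterning and the vessel wall were read the same way, against the 11.2% higher and 3.75% lower of all genes. Of 30 tested glycolysis and hypoxia genes 12 were called higher and 1 lower in OFT, with counts of 3 higher and 1 lower with the OFT control left out, and 4 and 0 with the OFT mutant left out. Pfkp, a phosphofructokinase, read 342 and 369 in OFT, 52.1 and 52.7 in LM, and 53.9 and 61.2 in UM, and differed by 2.15 ± 0.15. The hexokinase genes Hk1 and Hk2 differed by 1.05 ± 0.19 and 0.97 ± 0.15, Bnip3, a mitophagy gene, by 1.09 ± 0.15, and P4ha2, a collagen prolyl hydroxylase, by 0.83 ± 0.16. Ddit4, an inhibitor of mTOR signalling, was lower, at -1.08 ± 0.18. In fatty acid and energy metabolism 9 of 45 were higher and 1 lower (2.22%), with counts of 5 higher and 0 lower with the OFT control left out, and 4 and 0 with the OFT mutant left out, and 4 higher with a pseudocount of 1. Fabp3, the heart fatty acid binding protein, read 259.6 and 334 in OFT, 40.4 and 21.2 in LM, and 48.02 and 46.9 in UM, and the nuclear regulators Esrrg and Ppargc1a differed by 1.70 ± 0.17 and 1.68 ± 0.19. Cd36 and Acadl were also higher, at 1.06 and 0.87. Of 80 respiratory chain genes 2 were higher, the muscle forms Cox6a2 (2.99 ± 0.18) and Cox7a1 (1.32 ± 0.15), and 2 lower, Cox6b2 (-0.77 ± 0.16) and Atp5md (-0.62 ± 0.15), 2.5% each way and thus no more than the background, and the list's median was -0.03. Hk1, P4ha2, Acadl, Cox6b2 and Atp5md missed the threshold with the OFT control left out (adjusted p = 0.0664 to 0.445). Ddit4, Hk2, P4ha2, Cd36, Acadl, Cox6b2 and Atp5md missed the threshold with the OFT mutant left out (adjusted p = 0.0598 to 0.178). Atp5md missed the threshold with LM and UM as 1 group (adjusted p = 0.0954), Acadl under another choice of probe sets (adjusted p = 0.188), and Ddit4, Hk1, P4ha2, Cd36, Acadl, Cox6b2 and Atp5md under another pseudocount or other setting (adjusted p = 0.0511 to 0.1).

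Imprinted genes were higher for 4 of 24 tested members (16.7%) and lower for 2 (8.33%), with counts of 2 higher and 0 lower with the OFT control left out, and 2 and 0 with the OFT mutant left out. Igf2r, the receptor that clears IGF2, read 2351 and 2534 in OFT, 647 and 575 in LM, and 357 and 418 in UM, and differed by 2.25 ± 0.16. Its ligand gene Igf2 read 7516 and 7143 in OFT, 8736 and 5706 in LM, and 2021 and 2786 in UM, and differed by 0.83 ± 0.21. OFT was above every other array for Igf2r, while for Igf2 OFT and LM overlapped and UM was low. Slc38a4, an amino acid transporter, and Peg3 differed by 1.38 ± 0.20 and 0.94 ± 0.16, and Peg3 overlapped between OFT and LM. Nnat, a neuronal proteolipid, and Peg10 were lower, at -0.82 ± 0.19 and -0.80 ± 0.15. Peg3, Igf2, Nnat and Peg10 missed the threshold with the OFT control left out (adjusted p = 0.0704 to 0.275). Peg3, Igf2, Nnat and Peg10 missed the threshold with the OFT mutant left out (adjusted p = 0.0613 to 0.212). Peg3, Igf2 and Nnat missed the threshold with LM and UM as 1 group (adjusted p = 0.102 to 0.35), and Slc38a4, Peg3, Igf2 and Nnat under another pseudocount or other setting (adjusted p = 0.0538 to 0.155).

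Of 24 tested genes of the immediate early and heat shock response 11 were higher and 0 lower, with a higher count of 4 with the OFT control left out and 6 with the OFT mutant left out. Hspb1, a small heat shock protein of muscle, read 1023 and 1124 in OFT, 319.8 and 252 in LM, and 129 and 201 in UM, and differed by 2.16 ± 0.19. Egr1, a factor induced within minutes by growth signals and stress, read 261 and 198 in OFT, 71.7 and 69.2 in LM, and 52.9 and 82.2 in UM, and differed by 1.37 ± 0.18. Ier3, Fosl2 and Jund differed by 1.39 ± 0.18, 1.34 ± 0.17 and 1.15 ± 0.17, and Klf2 by 1.04. Handling of the tissue can also induce such genes, and its part in these values was not tested. Of 47 ribosomal protein genes only Rpl39l (-0.63 ± 0.18) was called, lower in OFT (2.13%). All 47 had negative differences, however, with a median of -0.36 against 0.01 over all genes. For 20 of them both OFT arrays lay below the other 4, against 17.5% of all genes. Of 37 cell cycle genes Rrm1 (-0.74 ± 0.17) and Rrm2 (-0.75 ± 0.16), subunits of ribonucleotide reductase, were lower (5.41%) and 0 higher. The cell cycle median was -0.19, and 28 of the 37 differences were negative. Both OFT arrays lay below the other 4 for 13 cell cycle genes and above them for 3. Jund, Klf2, Rpl39l, Rrm1 and Rrm2 missed the threshold with the OFT control left out (adjusted p = 0.0901 to 0.464). Rpl39l, Rrm1 and Rrm2 missed the threshold with the OFT mutant left out (adjusted p = 0.0535 to 0.277). Rpl39l missed the threshold with the LM control left out (adjusted p = 0.0922). Rpl39l missed the threshold with LM and UM as 1 group (adjusted p = 0.0549), Jund under another choice of probe sets (adjusted p = 0.0733), and Klf2, Rpl39l, Rrm1 and Rrm2 under another pseudocount or other setting (adjusted p = 0.0513 to 0.159).

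Ttr, transthyretin, a carrier of thyroid hormone and retinol made by liver, yolk sac and choroid plexus, read 814 on the OFT control array and 6.82 on the OFT mutant array. The 4 LM and UM arrays read 1.26, 0.32, 0.73 and 3.73. All 4 probe sets of Ttr were high on the OFT control array alone among the 6, at 155, 814, 347 and 404, against at most 2.62, 6.82, 10.1 and 8.65 on the other 5. The p75-sorted arrays read 989 and 464. Ttr was the only gene above 100 on 1 of the 6 arrays and under 30 on the other 5, thresholds that were chosen after its values were seen. The filter on low values leaves it out of the tested genes.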
